A study of Homo sapiens with 2 samples.

Results

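The amino acid transporter genes of 7 solute carrier families (SLC1A, SLC3A, SLC6A, SLC7A, SLC36A, SLC38A and SLC43A) were followed in 786-O cells grown with and without glucose. Members were all genes of the deposited tables whose symbol is 1 of these family names followed by a number, which gave 59 of 22585 genes, so that pseudogenes and antisense genes with similar symbols were not members. 786-O is an established cell line from a human clear cell carcinoma of the kidney. The line is known to have no functional VHL, the protein that marks HIF factors for degradation. The labels name this line for either condition, and VHL itself was not checked here. One RNA-seq library came from medium with 25 mM glucose and 1 from medium with 0 mM glucose. The submitters' short descriptions of the 2 libraries, LucF with glucose and LucG without, are not explained in the sources used here, nor is the time without glucose. Each condition is 1 library of 1 line, and the effect of glucose cannot be told apart from any other difference between the cells or preparations behind the pair.

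Cells take up amino acids through carriers that differ in substrate and driving ion. Members of SLC1A, SLC6A and SLC38A mostly couple uptake to sodium, and several SLC36A carriers move amino acids with protons. SLC43A carriers and the light chains of SLC7A mostly work by facilitated transport or exchange. The light chains reach the plasma membrane as heterodimers with a glycoprotein heavy chain of SLC3A, as in the CD98 complexes of SLC3A2. Several of these genes are known targets of the amino acid response, in which the transcription factor ATF4 is translated under nutrient or endoplasmic reticulum stress. In the kidney, the proximal tubule recovers filtered amino acids with apical carriers, among them the dimer of SLC3A1 and SLC7A9.

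After removal of repeated rows the libraries held 27317584 counts with glucose and 31345828 without. Levels are given as CPM, counts per 1000000 after TMM scaling of the 2 libraries, and levels of different genes are compared as CPM per kilobase of gene model. Genes with a sum of 20 or more counts across the pair of libraries are called measured, which included 29 members and 14239 genes in all. Ratios set the level without glucose over that with glucose, and each carries an exact 95% counting interval, which covers counting error only. A gene was called higher or lower without glucose when this interval lay wholly above 2-fold or wholly below 0.5-fold. There were no replicates, so no difference below has a replicate check and no p-value is given. In bulk RNA, fewer cells with a transcript and less of it per cell cannot be told apart.

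The line carried the renal factor gene PAX8 (244 and 232 CPM), while CA9, often abundant in clear cell carcinoma, had 4 and 0 counts. Of the 5 genes of proximal tubule function, SLC5A2 had no count, SLC34A1 had 2 in each library and LRP2 14 and 10. AQP1 had 33 and 28 counts and CUBN 104 and 178 (log2 ratio 0.63, interval 0.28 to 0.996), and none of the 3 measured genes passed the rule. Among the renal markers, EPAS1 was higher without glucose, and LHX1 and CDH6 were lower. Defining markers of leukocytes (PTPRC, 9 and 4 counts), endothelium (PECAM1, 5 and 1) and red cells (HBB, 0 and 1) were near 0. Of the 4 leukocyte markers 2 were measured, and CD68, a lysosomal protein gene that other cells also express, was higher (10.7 and 25.6 CPM). Of the 4 fibroblast markers 3 were measured, and LUM was lower (10.6 and 3.25 CPM). The summed level of the markers was 11.5 and 26.1 CPM for leukocytes and 18.6 and 8.98 CPM for fibroblasts. Genes of small nucleolar, scaRNA and microRNA transcripts held 5.83% and 7.99% of all counts. The median log2 ratio of all measured genes ran from 0.31 in the tenth with the shortest gene models to -0.21 in the tenth with the longest, which held 7 of the 29 measured members. The part of these differences in the results below was not tested, beyond the settings named beside them.

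Of the 29 measured members, 2 were higher without glucose (SLC3A2 and SLC7A5), 3 were lower (SLC3A1, SLC1A3 and SLC1A1), and 24 passed neither bound. These are 6.9% and 10.3% of the measured members. Of all measured genes, 3.75% were higher, 6.2% lower and 9.95% either by the same rule. The members' shares rest on 2 and 3 genes, and nothing particular to the families is read from them. Their median log2 ratio was 0.13, against 0.01 for all measured genes. The members' median was -0.05 over the 45 members kept by a lower count filter, described in the closing section. It was 0.26 over the 25 members with at least 100 counts, so its sign depends on the filter. The counting interval lay above 1 for 14 members (37.4% of all measured genes) and below 1 for 10 (36.5% of all), and it included 1 for the other 5. The plot of ratios with their intervals shows most members within 2-fold and 1 member, SLC3A2, far above the rest.

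**Figure D1:**
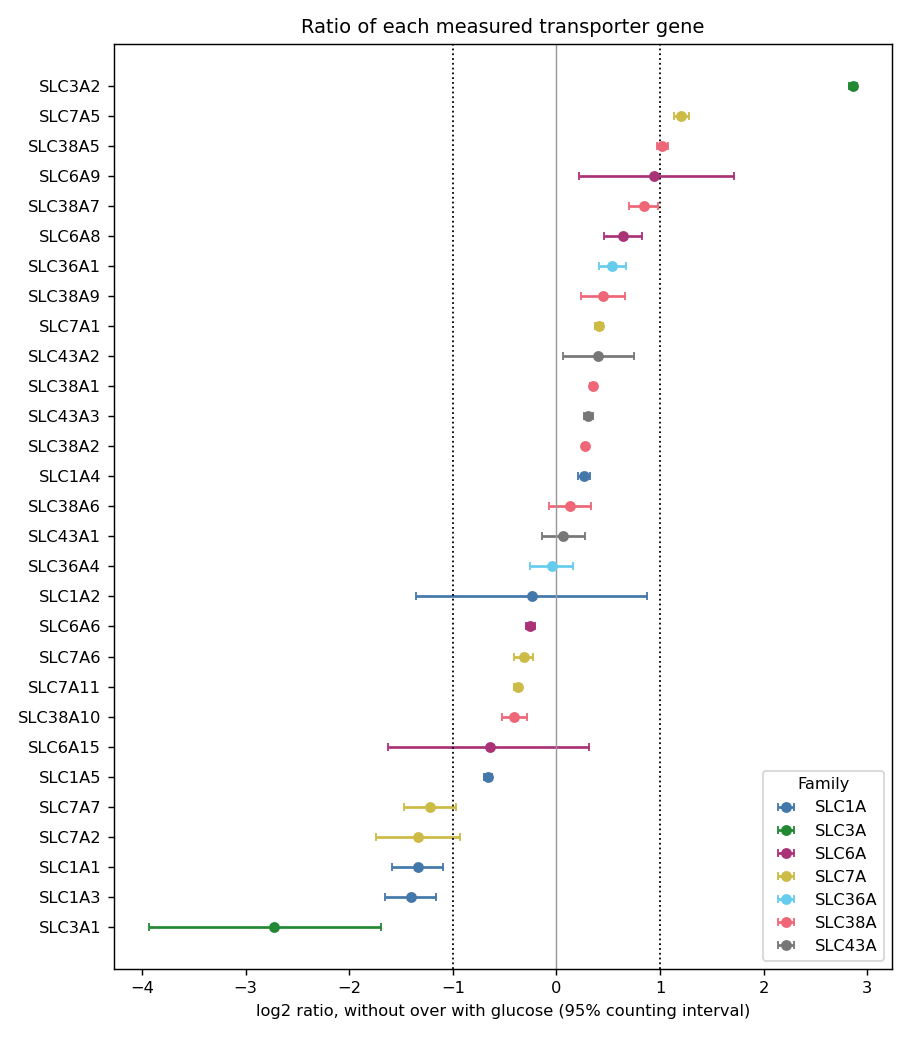
The horizontal axis is the log2 ratio of the library without glucose over the library with glucose, and each of the 29 measured members is a point coloured by family with its 95% counting interval. Dotted lines mark 2-fold in either direction, and SLC3A2 at 2.86 and SLC3A1 at -2.73 lie at the ends.

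The 2 heavy chain genes moved in opposite directions. SLC3A2, which encodes the CD98 heavy chain (4F2hc), had 6362 counts with glucose and 51111 without, or 228 and 1662 CPM. The library without glucose was 7.28-fold higher (interval 7.09 to 7.47), which placed SLC3A2 at rank 83 from the top of the 14239 measured genes. SLC3A1, which encodes rBAT, the heavy chain of the cystine and dibasic amino acid carrier of the tubule, had 54 counts with glucose and 9 without. It was 6.62-fold lower (interval 3.24 to 15.3), at rank 117 from the bottom, on a level of 1.94 and 0.293 CPM. Of the 10 exons of SLC3A1, 1 had more than 10 reads with glucose and 0 without. With 1 CPM added to each library its log2 ratio was -1.19 instead of -2.73. Its partners SLC7A9, with 4 and 3 counts, and SLC7A13, with none, were not measured. The 3′ part of SLC3A1 overlaps PREPL on the other strand over 3215 bases, and the use of strand in counting is not given, so some reads there cannot be assigned. PREPL was at 73.2 and 103 CPM (log2 ratio 0.49), the direction opposite to that of SLC3A1.

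In the hg19 coordinates of the tables, the SLC3A2 model spans 62623484 to 62656355 of chromosome 11 and the SLC3A1 model 44502597 to 44547962 of chromosome 2, each on the plus strand. The start of SLC3A2 lies 124 bases from that of SNHG1, a host transcript of small nucleolar RNAs on the minus strand, and the 2 gene models do not overlap. SNHG1 had 1767 counts with glucose and 5436 without, a log2 ratio of 1.48, and was also called higher. The small nucleolar RNA genes SNORD25, SNORD26 and SNORD27, which lie in it within 1000 bases of the start of SLC3A2, had log2 ratios of 0.14, 0.27 and 0.20. Across the body of SLC3A2, 16 of its 19 exons had more than 10 reads with glucose and 18 without, in the tables' own count of such exons.

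Among the light chains that pair with SLC3A2, SLC7A5 alone was called higher, and the others had ratios below 1 where measured. SLC7A5 encodes LAT1, the exchanger of large neutral amino acids such as leucine. It had 2178 counts with glucose and 5537 without, or 78.2 and 180.1 CPM, a 2.30-fold difference (interval 2.19 to 2.42). Its model spans 87863629 to 87903100 of chromosome 16 (hg19, minus strand), and it has the near-identical copies SLC7A5P1 and SLC7A5P2 on the same chromosome, between which reads can be split. SLC7A5P1 held 12 counts with glucose and 13 without, and SLC7A5P2 28 and 117. With the counts of all 3 summed, a setting chosen after seeing the data, the ratio was 2.31, close to that of SLC7A5 by itself.

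SLC7A11 encodes xCT, which imports cystine in exchange for glutamate, and the reduction of that cystine to cysteine uses NADPH. It was the light chain gene with the highest level per length in each library, at 70.5 CPM per kilobase with glucose and 54.4 without. Its log2 ratio was -0.37 (interval -0.41 to -0.34), within 2-fold. SLC7A6, which encodes y+LAT2, an exchanger of cationic for neutral amino acids, had 75.5 and 60.7 CPM (log2 ratio -0.31). Its gene model overlaps SLC7A6OS on the other strand over 1205 bases, and SLC7A6OS had a log2 ratio of 0.15. SLC7A7, the related y+LAT1 of epithelia, had 411 and 195 counts, 14.8 and 6.34 CPM, and a log2 ratio of -1.22 (interval -1.47 to -0.97). The upper bound of SLC7A7 missed the rule narrowly, and it passed as lower when the libraries were scaled by total counts or when ratios were centred by length class. SLC7A8, which encodes LAT2, had 5 and 4 counts and SLC7A10, the carrier of small neutral amino acids including D-serine, 2 and 2, so neither was measured.

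The balance of heavy chain to light chain transcripts differed between the libraries. The summed level of the 6 light chain genes was 105 CPM per kilobase with glucose and 106 without. SLC3A2 stood at 79.1 CPM per kilobase with glucose and 576 without. The level of SLC3A2 was thus 0.751 times the light chain sum with glucose (interval 0.730 to 0.773) and 5.42 times without (interval 5.34 to 5.51). Within the light chain sum, SLC7A11 made up 67.0% with glucose and 51.2% without, and SLC7A5 16.4% and 37.4%. These are transcript levels, and SLC3A2 also serves as a partner of integrins at the membrane.

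**Figure D2:**
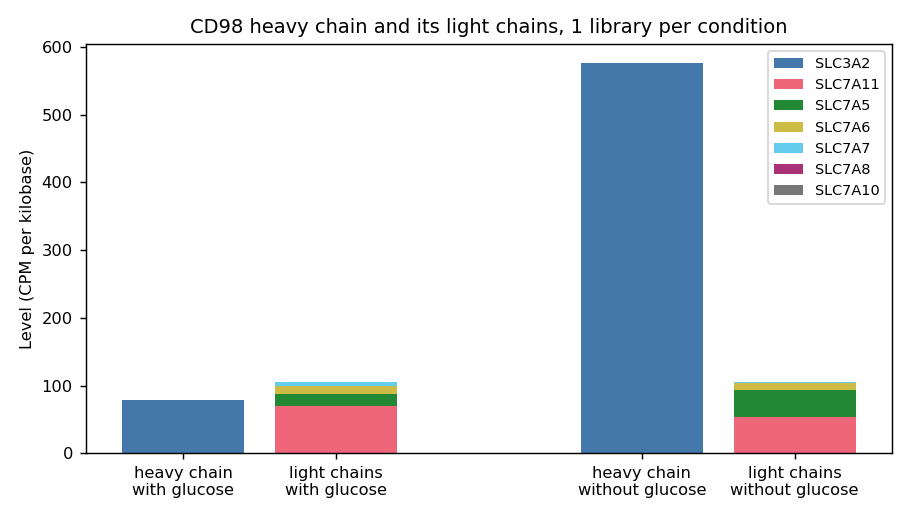
Bars give the level in CPM per kilobase of gene model for the heavy chain gene SLC3A2 and, stacked, for its 6 light chain genes, in 1 library per condition. The light chain stacks have nearly equal height, 105 and 106, while the SLC3A2 bars stand at 79.1 and 576.

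The cationic amino acid transporters of SLC7A, which take up arginine and lysine without a heavy chain, did not pass the rule. SLC7A1 (CAT1), the widely expressed member, had 272 CPM with glucose and 362 without, a log2 ratio of 0.41 (interval 0.37 to 0.45). SLC7A2 (CAT2) had 171 and 75 counts, and its log2 ratio of -1.33 had an interval from -1.74 to -0.93, which crossed the bound of 2-fold. SLC7A3, with 1 count in all, and the relatives SLC7A4 and SLC7A14, with 2 and 15 counts over both libraries, were not measured.

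Of the 5 glutamate transporter genes of SLC1A, 3 were measured, at low levels, and 2 were called lower without glucose. SLC1A1 encodes EAAT3, the glutamate, aspartate and cysteine carrier of neurons and renal tubules. It had 455 counts with glucose and 199 without, or 16.3 and 6.47 CPM, 2.52-fold lower (interval 2.13 to 3.0). The tables list 11 of its 12 exons with more than 10 reads with glucose and 3 without. SLC1A3 (EAAT1, or GLAST), known best from astrocytes, had 461 and 192 counts, or 16.6 and 6.24 CPM, 2.65-fold lower (interval 2.23 to 3.15). Exons of SLC1A3 with more than 10 reads numbered 8 of 11 with glucose and 4 without. SLC1A2 (EAAT2) had 16 and 15 counts, an interval of the log2 ratio from -1.35 to 0.88, and is not distinguishable from no difference at this depth. The cerebellar SLC1A6 and the retinal SLC1A7 had 4 counts each over both libraries and were not measured. In hg19, the SLC1A1 model spans 4490427 to 4587469 of chromosome 9 and the SLC1A3 model 36606457 to 36688436 of chromosome 5, both on the plus strand.

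The 2 neutral exchanger genes of the same family passed neither bound and differed in direction. SLC1A5 (ASCT2), a sodium-dependent glutamine carrier of proliferating cells, had 12927 counts with glucose and 9052 without. Its level was 145 CPM per kilobase with glucose and 92.1 without, a log2 ratio of -0.66 (interval -0.70 to -0.62), within 2-fold but with an interval wholly below 1. It had the highest level of all members with glucose and stood at rank 5 without. SLC1A4 (ASCT1), which carries alanine, serine, cysteine and threonine, had 145 and 174 CPM, a log2 ratio of 0.26 (interval 0.20 to 0.32).

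The sodium-coupled neutral carriers of SLC38A made up the largest share of the members' summed level with glucose, 34.9%, and none of the 7 measured members passed the rule. The system A genes SLC38A1 and SLC38A2 had 609 and 644 CPM with glucose and 776 and 782 CPM without. Their log2 ratios were 0.35 (interval 0.32 to 0.38) and 0.28 (interval 0.25 to 0.31), where SLC38A2 (SNAT2) is the system A carrier known to be induced by amino acid shortage. The third system A gene, SLC38A4, had 5 counts in each library. SLC38A5 (SNAT5), a system N carrier of glutamine, serine and glycine, had 4110 and 9205 counts, or 148 and 299 CPM. Its ratio of 2.03 had an interval from 1.96 to 2.11, just across the bound, and it passed as higher with upper-quartile scaling. Its model spans 48316927 to 48328644 of chromosome X (hg19, minus strand). The other system N gene, SLC38A3, had 4 and 2 counts. SLC38A10, less well characterised, had 44.2 and 33.3 CPM (log2 ratio -0.41), and SLC38A6 13.1 and 14.4 CPM (0.13), with an interval that included 1. SLC38A8 and SLC38A11 were not measured.

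Genes of carriers that work at the lysosome had ratios above 1 and did not pass the rule. SLC38A7, a lysosomal exporter of glutamine and asparagine, had 623 and 1233 counts, a log2 ratio of 0.84 (interval 0.70 to 0.98). SLC38A9, the lysosomal arginine sensor that signals to mTORC1, had 299 and 451 counts (0.45, interval 0.24 to 0.67). SLC36A1 (PAT1), a proton-coupled carrier of small neutral amino acids, had 792 and 1271 counts (0.54, interval 0.41 to 0.67). All 3 intervals lay above 1, as did those of 37.4% of all measured genes. SLC36A4 (PAT4), a high-affinity member of the same family, had 13.6 and 13.2 CPM (-0.05), with an interval that included 1. The renal and intestinal SLC36A2 had 0 counts with glucose and 7 without, and SLC36A3 had 3 in all, so neither was measured.

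The facilitated carriers of SLC43A stayed within 2-fold. SLC43A1 (LAT3) and SLC43A2 (LAT4), which carry branched-chain amino acids and phenylalanine without a heavy chain, had 12.4 and 4.45 CPM with glucose and 12.9 and 5.89 CPM without. Their log2 ratios were 0.07 (interval -0.14 to 0.28) and 0.40 (interval 0.07 to 0.74). SLC43A3, which carries purine nucleobases rather than amino acids, had the highest level per length of the family, 102 and 126 CPM per kilobase, and a log2 ratio of 0.31 (interval 0.27 to 0.35).

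Most of SLC6A, the family of sodium- and chloride-coupled neurotransmitter and amino acid carriers, had few counts, and 4 of its 19 genes were measured. SLC6A6, the taurine transporter, had 8121 and 7522 counts, a log2 ratio of -0.25 (interval -0.30 to -0.21). SLC6A8, the creatine transporter, had 381 and 655 counts, a log2 ratio of 0.64 (interval 0.45 to 0.83). Its copy SLC6A10P, with which reads can be shared, had 4 and 1 counts. The glycine transporter gene SLC6A9 had 24 and 51 counts and the neutral amino acid carrier gene SLC6A15 24 and 17, under 2 CPM in each library. Carriers of the tubular brush border, SLC6A18, SLC6A19 and SLC6A20, had at most 4 counts in a library. Over all families, the 30 unmeasured members held 88 counts with glucose and 82 without, and none exceeded 0.323 CPM in either library. A count of 0 allows up to 0.108 CPM with glucose and 0.0976 CPM without (3 counts), so levels under these limits can go without a count at this depth.

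**Figure D3:**
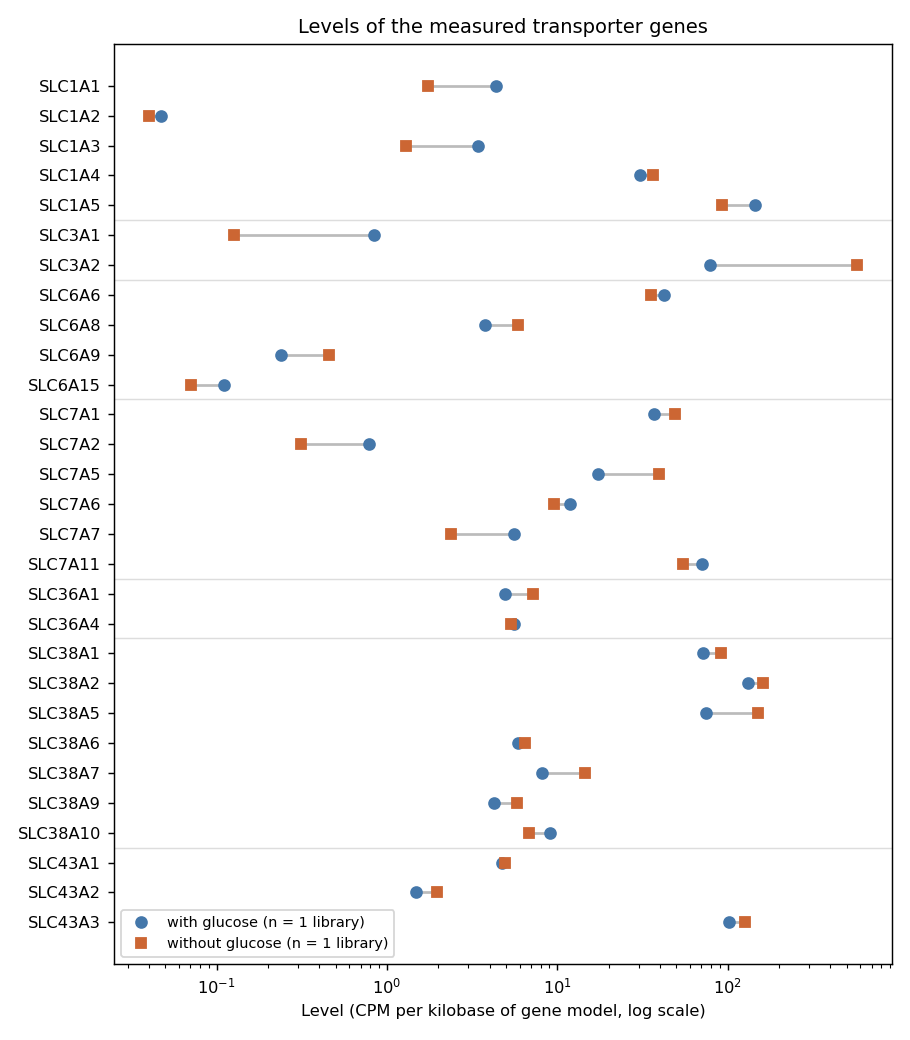
The horizontal axis is the level in CPM per kilobase of gene model on a log scale, and each row is 1 of the 29 measured members, grouped by family, with a circle for the library with glucose and a square for the one without. SLC1A5 lies highest with glucose at 145, and SLC3A2 without at 576.

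Summed per length, the members reached 879 CPM per kilobase with glucose and 1489 without, a ratio of 1.69. The same sum over all measured genes had a ratio of 1.27. A sum per length gives short gene models more weight, such as those of small RNA genes, whose share of counts was 5.83% with glucose and 7.99% without. The tenth of genes with the shortest models held 0 measured members, so 1.27 is not a matched background for the ratios of sums below. SLC3A2 supplied 9.0% of the members' sum with glucose and 38.6% without. Without SLC3A2 the members' sum stood at 800.1 and 914 CPM per kilobase, a ratio of 1.14. Among the other families the ratio of summed levels was lowest for SLC1A at 0.717 and highest for SLC38A at 1.43. The remaining ratios were 0.900 for SLC6A, 1.09 for SLC7A, 1.20 for SLC36A and 1.23 for SLC43A. By family, the median log2 ratio over measured genes was -0.66 for SLC1A, -0.34 for SLC7A and 0.35 for SLC38A. It was 0.19 for SLC6A, 0.25 for SLC36A and 0.31 for SLC43A, and these medians rest on 2 to 7 genes each.

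**Figure D4:**
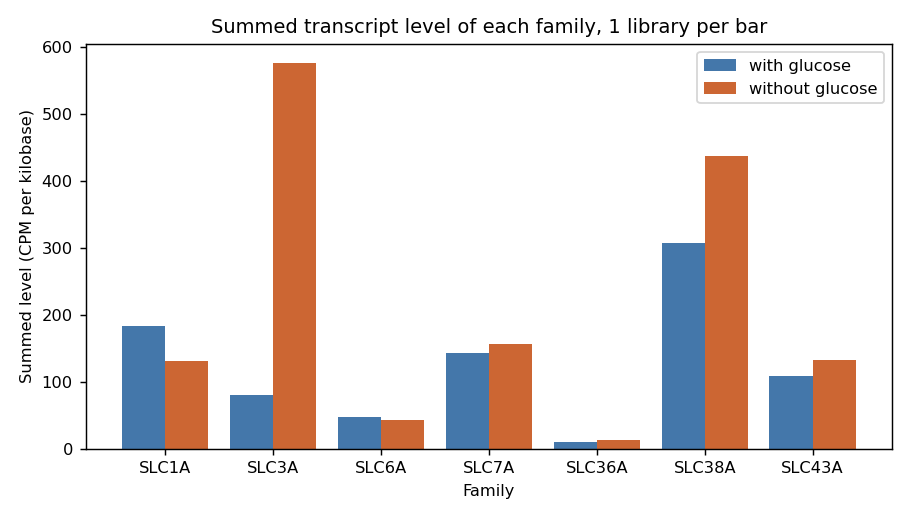
Bars give the sum over all members of a family of the level in CPM per kilobase, 1 library per bar. The SLC3A bars stand at 79.9 and 576, and the SLC1A bars at 184 and 132.

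Promoter sequences were looked at for the members at or near the rule, because SLC3A2 and SLC7A5 encode partner chains and were both higher. RefSeq windows of 300 bases on GRCh38.p14 were matched by symbol for 44 of the 59 members (66 windows, up to 4 for a gene with several starts), and the 250 bases before each start were searched. The 4 windows shown each hold 1 match and are a choice among the windows with matches. SLC3A2 and SLC1A3 had windows for other starts too. Another window of SLC1A3 and windows of SLC7A7, which missed the rule as lower narrowly, also held a match and are not shown. The window of SLC1A1, which was called lower, held no match and is not shown. The windows are on another build than the tables and were not tied to the gene starts given above. Capitals mark matches to the motifs described next.
SLC3A2 (chr11:62881449-62881698, plus strand): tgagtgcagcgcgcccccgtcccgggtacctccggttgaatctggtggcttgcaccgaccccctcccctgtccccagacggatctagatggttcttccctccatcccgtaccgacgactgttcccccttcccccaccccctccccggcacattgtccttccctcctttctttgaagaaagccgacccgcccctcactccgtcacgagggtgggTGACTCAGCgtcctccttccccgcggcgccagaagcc
SLC7A5 (chr16:87869508-87869757, minus strand): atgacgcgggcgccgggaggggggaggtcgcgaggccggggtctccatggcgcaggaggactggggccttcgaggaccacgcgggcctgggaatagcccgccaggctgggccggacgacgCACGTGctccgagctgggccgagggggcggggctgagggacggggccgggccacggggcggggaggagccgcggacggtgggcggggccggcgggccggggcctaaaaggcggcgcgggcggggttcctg
SLC38A5 (chrX:48470261-48470510, minus strand): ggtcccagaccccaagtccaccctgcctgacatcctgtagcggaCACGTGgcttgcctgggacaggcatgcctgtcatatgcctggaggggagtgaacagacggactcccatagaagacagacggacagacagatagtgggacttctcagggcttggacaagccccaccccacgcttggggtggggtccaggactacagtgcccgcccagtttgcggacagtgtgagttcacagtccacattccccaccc
SLC1A3 (chr5:36596338-36596587, plus strand): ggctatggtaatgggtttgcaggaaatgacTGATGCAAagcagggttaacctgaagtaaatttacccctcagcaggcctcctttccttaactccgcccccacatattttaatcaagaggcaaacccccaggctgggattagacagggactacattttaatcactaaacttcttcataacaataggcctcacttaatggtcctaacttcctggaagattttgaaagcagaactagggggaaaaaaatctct

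The motifs were searched on both strands. The core of the C/EBP-ATF response element, TGATGNAA, was in 2 of the 66 member windows (3.03%) and in 3.14% of all 35116 windows. The members were SLC1A3, marked above, and SLC1A5, and each had a ratio below 1. The core of the antioxidant response element, TGACNNNGC, was in 6 member windows (9.09%, against 10.9% of all). SLC3A2 held it as TGACTCAGC, 37 bases before the start that belongs to the window shown. The others were SLC7A1, with a ratio above 1, and SLC1A3 (in a window not shown), SLC1A5, SLC7A6 and SLC7A7, with ratios below 1. The windows for other starts of SLC3A2, from 62855859 and from 62880646 of chromosome 11 (GRCh38.p14), held none of the motifs. The E-box CACGTG was in 9 member windows (13.6%, against 6.34% of all), among them those of SLC7A5, 130 bases before the start, and of SLC38A5, 206 bases before it. The other measured members with it were SLC36A1 (log2 ratio 0.54), SLC43A1 (0.07), SLC1A5 (-0.66) and SLC7A7 (-1.22), and the unmeasured ones SLC1A7, SLC6A16 and SLC7A8. Members with either motif thus had ratios on both sides of 1. The ER stress response element was in none of the member windows and in 0.074% of all. A match describes letters in a short window, and binding was not measured.

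Genes around the transporters were read from 5 further lists, whose counts stand against 3.75% higher and 6.2% lower among all measured genes. Of 18 other amino acid and peptide carriers outside the 7 families, 12 were measured, 0 were higher and 1 was lower. The lower gene was SLC25A12, the mitochondrial aspartate-glutamate carrier, at 31.6 and 14.0 CPM (log2 ratio -1.18, interval -1.35 to -1.01). The lysosomal cystine exporter CTNS had 9.55 and 21.3 CPM (1.16, interval 0.95 to 1.37), just across the bound. Of 9 partner and trafficking genes, 7 were measured. SGK1, a kinase that raises the surface level of several carriers, was higher at 14.7 and 68.2 CPM (2.22). ARL6IP5, a membrane protein that binds the EAAT3 carrier, was lower at 93.6 and 41.1 CPM (-1.19), as was SLC1A1, the gene of EAAT3.

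Of 31 genes of amino acid sensing at the lysosome, 30 were found in the tables and all of these were measured, 2 were higher and 1 was lower, with a median log2 ratio of 0.45. RRAGC, a Rag GTPase that recruits mTORC1, had 4.60 and 16.8 CPM (1.87), and FLCN, folliculin, which acts on the RRAGC protein, 48.0 and 108 CPM (1.17). GATSL3, the older symbol of the arginine sensor CASTOR1, was lower at 10.4 and 2.60 CPM (-2.00). Of 16 genes of the amino acid response and other regulators of carrier genes, all measured, 4 were higher and 0 lower, where 3.75% and 6.2% of all measured genes were (median 0.52). These were DDIT3 at 18.6 and 342 CPM (4.20), ATF3 at 7.76 and 81.8 CPM (3.40), TRIB3 (2.14) and CEBPG (1.18), stress-induced factors and an inhibitor of ATF4 among them. ATF4 itself passed neither bound (0.44), nor did its target ASNS (0.30), NFE2L2, which encodes NRF2 (0.55) or MYC (0.95). In the same list, EIF2AK4 (-0.35, interval -0.41 to -0.29) and CHAC1 (-0.19, interval -0.30 to -0.07) had ratios below 1 and passed neither bound. Of 11 genes that use imported cystine and glutamine, 10 were measured and 2 were higher. GCLC, the catalytic subunit of the first step of glutathione synthesis, had 40.8 and 114 CPM (1.48), and CTH, which makes cysteine from cystathionine, 73.1 and 272 CPM (1.90).

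**Figure D5:**
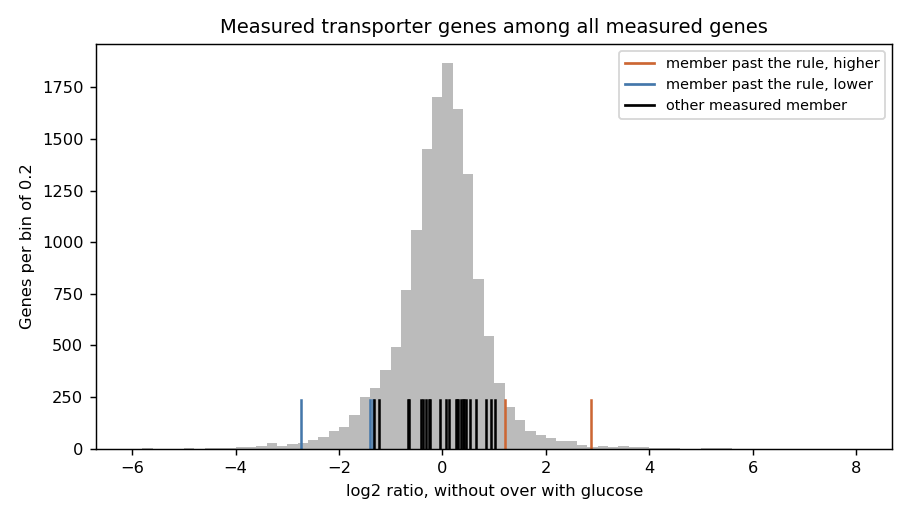
Grey bars count the 14239 measured genes by log2 ratio in bins of 0.2, and vertical lines mark the 29 measured members, coloured by whether they were higher, lower or passed neither bound. Most members lie in the body of the distribution, and SLC3A2 at 2.86 lies in its upper tail.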

How the data were processed

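The labels' protocols name Trizol for extraction of total RNA, and 1 library was made per condition. The deposited raw counts are whole numbers per gene model (27329002 and 31358694 over all rows), per the file headers, on hg19, per the submitters' processing notes. The authors' deposited RPKM values equal these counts over gene-model length and a constant for each library (27.1 and 31.0, in 1000000 reads), and were used for this check alone. The sources used here name no aligner, counting program or use of strand.

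Scripts used Python 3.11.15 with scipy 1.17.1 and R 4.3.3. Of 24364 rows, 538 with the location and counts of an earlier row in each library were removed, and the rest (27317584 and 31345828 counts) were added up by symbol. TMM factors (1.02 with glucose, 0.981 without) came from edgeR 4.0.16 over genes of at least 20 counts. Intervals of ratios are exact 95% Clopper-Pearson intervals of the share of counts, and those of ratios of summed levels assume Poisson counts. Alternatives of scaling, filter, gene length and size are given in the closing section. The size rule was also run on simulated counts drawn with counting error alone. Variation between cultures was not simulated, so that run does not show how the rule behaves under it. Values were printed for every member past the rule or with at least 10 CPM in a library, 24 in all, and for list genes past the rule. CTNS, MYC, ATF4, ASNS, NFE2L2, EIF2AK4, CHAC1, SLC6A9 and SLC6A15 and the genes of the closing section were named after their values were seen. Members, lists, rules and alternatives were chosen with earlier results of these data known. Some list genes are not reported here. Promoter windows are from RefSeq.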

Additional observations from a re-analysis of the deposited data

How the results depend on the processing

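Precision is limited by depth for low genes and by the single library per condition for all. With 1 library per condition there was no replicate to leave out. No paired analysis was possible because a single library stood for each condition. All alternatives planned were run. Of 144 values for 24 named members over 6 alternatives of scaling, gene length or added CPM, 119 stayed inside the main counting interval, 25 moved outside it and 0 changed sign. The number of members called followed the size asked for, with 4 higher and 6 lower beyond 1.5-fold and 1 higher and 1 lower beyond 3-fold. It changed by at most 1 in either direction under the other settings, which added SLC7A7 as lower (total counts, length class), added SLC38A5 as higher (upper quartile) or left out SLC3A1 (at least 100 counts). Over all measured genes the rule called 1451 higher and 1800 lower beyond 1.5-fold, and 200 and 306 beyond 3-fold. Scaling by total counts gave medians of -0.71 for SLC1A, 0.29 for SLC38A and 0.25 for SLC43A. Upper-quartile scaling gave 0.39 for SLC38A. Centring by length class gave 0.34 for SLC6A, -0.16 for SLC7A, 0.40 for SLC38A and 0.26 for SLC43A. The filter of at least 1 count also asked for more than 3 counts in 1 library or the other, which kept 45 members. With it the medians were -0.61 for SLC1A, 0.54 for SLC36A and 0.21 for SLC38A. With at least 100 counts they were -0.996 for SLC1A and 2.86 for SLC3A, which then held SLC3A2 alone. With 1 CPM added the SLC3A median was 0.84. The ratio of the members' summed level was 1.63 with total counts, 1.68 with median-of-ratios size factors, 1.74 with upper-quartile factors and 1.71 without small RNA genes. The ratio of SLC3A2 to its light chains was 2.27 with glucose and 11.1 without when SLC7A11 was left out, and 0.269 and 2.16 on counts without length, so that its size, though not its order between the libraries, depends on these choices.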

Other observations

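The tables' count of exons with more than 10 reads gives a second view of coverage. Of the 29 measured members, 8 had more such exons without glucose, 7 had fewer and 14 had the same number. In 6 members every exon passed in each library. SLC6A8 had 9 and 13 of 15 exons over 10 reads, and SLC38A9 8 and 12 of 16. For SLC7A7 the numbers were 10 and 7 of 13.

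The pseudogene SLC7A5P2, which is not a member, had 28 counts with glucose and 117 without, a log2 ratio of 1.92 (interval 1.32 to 2.57), and was called higher as SLC7A5 was. SLC7A5P1 had 12 and 13 counts, with an interval of the log2 ratio from -1.28 to 1.23. Whether reads of SLC7A5 were placed on either copy was not tested.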
